A study of Rattus norvegicus with 8 samples.

Results

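The genes described here encode proteins of the acrosome, the enzyme-filled vesicle over the sperm head, and the basic proteins that pack DNA in the sperm nucleus. They were chosen by name, as the rows of the count table whose symbol was Crisp2, Acr, Acrbp, Zpbp, Spesp1, Tnp1, Tnp2, Prm1 or Prm2. All 9 members were present among the 16764 symbols of the table. The study sequenced RNA from Brown Norway rat germ cells in 3 groups of 2 libraries each. Undifferentiated spermatogonia (USg) were a rat spermatogonial stem cell line expanded in SG medium and taken, per the RNA protocol and the sample descriptions, at day 0 before plating on laminin. The titles of the USg samples carry T120, as those of DSg do, so the labels do not agree on the USg time: at day 0, DSg vs USg spans medium, time and laminin, and at 120 h it would span less. Differentiating spermatogonia (DSg) were cells of that line taken 7 days after plating on laminin, of which 120 h were in SD medium, a medium with neuregulin-1 and all-trans-retinoic acid added. The spermatocyte-enriched group (Spc) was primary testis germ cells that did not bind laminin, from which cells adhering to plastic or collagen-I had been removed, kept for 2.5 days in DMEM and Ham's F12 with 10% FBS. USg and DSg are thus 1 cell line, whereas Spc differed from them in source, selection and medium as well as stage, and these cannot be told apart. The protocol speaks of replicate cultures of the line, and the labels do not say whether the Spc libraries came from separate animals, so p-values measure the spread between these libraries. Samples of Foxa2 chromatin immunoprecipitation were not analysed here.

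An acrosome forms in round spermatids from Golgi vesicles, and its contents help sperm to pass the zona pellucida around the egg. Transcription of several acrosomal genes already starts in spermatocytes, before the organelle is seen. Later, in elongating spermatids, most histones are replaced first by transition proteins and then by protamines, and the genes for these proteins are switched on after meiosis. Acrosomal and nuclear protein genes therefore mark different steps of male germ cell development.

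Total counts were between 2657291 and 5697165 per library. In CPM, which are counts scaled to library size with TMM factors, 1 count was worth between 0.178 and 0.404, and this sets the precision of the low members. The libraries differed in ways outside the groups. The 1045 olfactory receptor genes, which are not germ cell markers as a class, summed to 1367 CPM in DSg 2 and to between 134 and 306 CPM in the other 5 libraries. In DSg 2, 96.7% of these genes had a count. The share of counts on ribosomal RNA genes was 7.81% for USg 1, 12.4% for DSg 1 and at most 0.733% for the other libraries. Among stage markers, 7 of 8 genes of undifferentiated spermatogonia fell in Spc over USg and 1, Id4, rose (log2 fold change 1.42 ± 0.33). Of 8 tested pachytene markers 6 rose, while Ccna1 (0.07 ± 0.51) and Ovol1 (0.29 ± 0.40) did not pass. All 8 markers of early meiosis rose too. Over all genes tested, 17.9% were higher in Spc than in USg and 16.6% lower. In DSg over USg, 5 of 8 genes of undifferentiated spermatogonia fell, and 2 of 8 markers of early meiosis rose. Of 5 tested markers of differentiating spermatogonia 2, Kit and Cyp26a1, rose, while Sohlh1 (-0.52 ± 0.52), Sohlh2 and Dmrtb1 did not pass. Over all genes, 0.565% were higher in that comparison and 1.92% lower. Markers of testicular somatic cells also moved with Spc. The 10 Sertoli cell markers summed to 1332 and 1089 CPM in Spc, against 420 and 465 CPM in USg, with 4 of 8 tested members higher. Most of these sums came from 1 gene, Clu, with 1011 and 787 CPM in Spc and 292 and 381 CPM in USg. Myoid markers summed to 473 and 500.1 CPM in Spc, against 52.9 and 83.9 CPM in USg, with 5 of 6 higher. Of the 6 Leydig cell markers, 3 were tested and 1, Star, was higher (log2 fold change 7.37 ± 0.45), whereas Insl3 had 1 and 0 counts in Spc. Of 6 tested macrophage markers 5 were higher in Spc, the list summing to 62.9 and 75.8 CPM there, against 15.05 and 8.19 CPM in USg. Of 5 endothelial markers 1 was higher and 3 were lower. Their part in the results below was not tested. In these bulk libraries, fewer cells of a type and less RNA per cell cannot be told apart.

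The promoters of 8 of the 9 members were found by symbol in the RefSeq table of build GRCr8. The stretch of 250 bases upstream of the annotated start was searched on both strands for the cAMP response element TGACGTCA, which binds CREM, a transcription factor known to act on many spermatid genes in mouse, for the shorter core TGACG, which the full element contains, and for TATAAA. The full element was found in 1 of the 8 windows, against 1.70% of 27457 promoters in the table. The core was found in 3 of the 8 windows, against 19.0% of promoters, and TATAAA in none, against 13.1%. Only exact matches were counted, so a window without a match can still hold a variant of these motifs. The Prm1 window, for example, holds TGACTTCA, which was not counted. Tnp1 carried the full element from position -113, Acr a core at -237 on the opposite strand and Acrbp a core at -24, positions being counted from -1, the last base before the start. These 3 sequences are shown because they hold the matches, in capitals. They lie at chr9:82044279-82044528, minus strand (Tnp1), chr7:122517684-122517933, plus strand (Acr) and chr4:159537149-159537398, plus strand (Acrbp), each written 5′ to 3′ toward its gene.
Tnp1: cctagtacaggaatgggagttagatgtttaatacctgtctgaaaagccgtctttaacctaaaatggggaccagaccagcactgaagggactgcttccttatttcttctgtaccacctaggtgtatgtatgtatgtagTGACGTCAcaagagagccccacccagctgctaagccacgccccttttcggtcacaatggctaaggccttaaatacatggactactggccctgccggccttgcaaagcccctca
Acr: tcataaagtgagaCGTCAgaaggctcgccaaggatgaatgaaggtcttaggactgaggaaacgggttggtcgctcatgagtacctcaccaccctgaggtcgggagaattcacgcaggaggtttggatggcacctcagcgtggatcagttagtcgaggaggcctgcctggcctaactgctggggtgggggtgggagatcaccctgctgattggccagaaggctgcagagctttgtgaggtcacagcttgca
Acrbp: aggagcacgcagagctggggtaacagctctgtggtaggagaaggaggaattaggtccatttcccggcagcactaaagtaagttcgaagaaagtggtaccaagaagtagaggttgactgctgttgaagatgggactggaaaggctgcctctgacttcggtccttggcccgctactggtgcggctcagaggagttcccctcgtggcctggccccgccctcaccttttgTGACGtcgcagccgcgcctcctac

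The members did not all move the same way across the 3 groups. Crisp2, Acr, Zpbp and Spesp1 rose in Spc, Acrbp did not pass the test, and Tnp1 fell, whereas Tnp2, Prm1 and Prm2 had at most 4 counts in any library. Of the 9 members, 6 passed the filter on low counts. Crisp2 and Acr passed through their Spc counts, since neither passed when only the USg and DSg libraries were kept, so the counts of members called are a description. In the comparison of Spc with USg, 4 of these 6 were higher and 1 lower, when 17.9% of the 12210 genes tested were higher and 16.6% lower. In the comparison of Spc with DSg, 4 were higher and 0 lower, against 14.8% and 11.7% of all genes. With total-count scaling, which moved the median of all genes in that comparison to -0.22 (-0.03 with TMM), 1407 genes were higher and 1681 lower in Spc, and upper quartile scaling gave 1486 and 1925, against 1806 and 1433 with TMM, while the members called were the same under all 3 scalings.

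**Figure D1:**
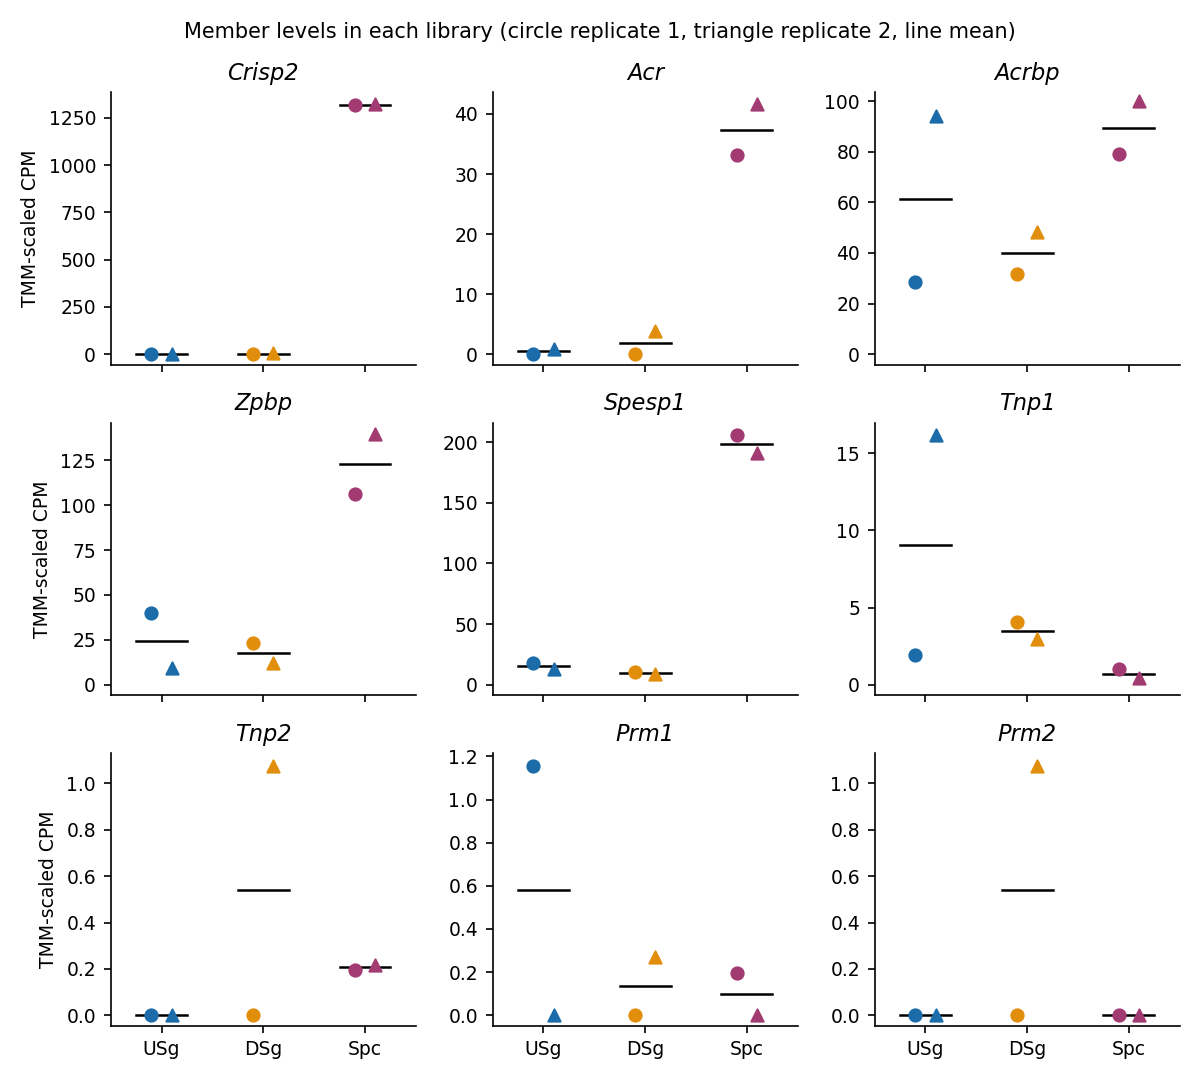
Level of each member in TMM-scaled CPM (vertical axes, each from 0 and on its own scale) in the USg, DSg and Spc libraries (horizontal axis); circles are replicate 1, triangles replicate 2 and lines the group mean. Crisp2, Acr, Zpbp and Spesp1 are highest in both Spc libraries, Acrbp spreads from 28.6 to 94.4 CPM within USg, and Tnp1 reaches 16.2 CPM in USg 2 alone.

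Crisp2 encodes a cysteine-rich secretory protein of the acrosome and the sperm tail. It had 2 and 4 counts in USg, 2 and 17 in DSg and 6684 and 6069 in Spc, or 0.772 and 0.712 CPM, 0.808 and 4.58 CPM, and 1317 and 1321 CPM. The Spc libraries stood far above all others and were nearly equal. The counts in the cell line were few, so depth limits how precisely the size of the folds is known. The log2 fold change of Spc over USg was 10.75 ± 0.68 (SE; edgeR adjusted p = 1.01e-04), the second highest of the 12210 genes tested, and that of Spc over DSg was 8.81 ± 0.61 (adjusted p = 1.28e-04). Both calls held under all 15 alternatives run, between 10.69 and 10.85 for Spc over USg and between 8.34 and 10.61 for Spc over DSg, the upper end without DSg 2.

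Acr encodes acrosin, the serine protease of the acrosome, which is stored as the inactive proacrosin. It had 0 and 5 counts in USg, 0 and 14 in DSg and 168 and 191 in Spc. That is 0 and 0.890 CPM in USg, 0 and 3.77 CPM in DSg and 33.1 and 41.6 CPM in Spc. The Spc libraries did not overlap with those of the cell line, in which 1 library of each group had no count. The log2 fold change was 5.94 ± 1.05 for Spc over USg (edgeR adjusted p = 0.00299) and 4.13 ± 0.91 for Spc over DSg (adjusted p = 0.0111). The call against DSg ended with DESeq2 (adjusted p = 0.126), and without USg 2 or DSg 2 the fold is fitted against a group with no count. The gene span of Acr in RefSeq overlaps Shank3, and the strand setting of the counting is not given in the sources used here. Zpbp and Tnp2 also overlap other annotated genes. Shank3 had 32 and 19 counts in Spc, against 201 and 561 in USg.

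Spesp1 encodes a protein of the equatorial segment, the band of the acrosome that survives the acrosome reaction. It had 18.1 and 12.6 CPM in USg, 10.1 and 9.16 CPM in DSg and 206 and 191 CPM in Spc. The Spc libraries were all above the rest, and within each group the libraries lay close together. Spesp1 rose by 3.70 ± 0.35 on the log2 scale over USg (edgeR adjusted p = 2.44e-04) and by 4.37 ± 0.37 over DSg (adjusted p = 2.55e-04), and both calls held under all 15 alternatives, from 3.47 to 3.93 and from 4.15 to 4.61.

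Zpbp encodes a zona pellucida binding protein of the acrosomal matrix. It had 39.7 and 9.08 CPM in USg, 23.4 and 12.1 CPM in DSg and 106 and 140 CPM in Spc. The Spc libraries were again the highest, but USg 1 was far above USg 2. The log2 fold change of Spc over USg was 2.37 ± 0.63 (edgeR adjusted p = 0.0199), and it was 3.71 without USg 1 and 1.64 without USg 2, past the threshold in both. For Spc over DSg it was 2.80 ± 0.65 (adjusted p = 0.0140), and the call ended without DSg 1 (3.52, adjusted p = 0.0501) or DSg 2 (2.38, adjusted p = 0.117).

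Acrbp encodes the proacrosin binding protein, which holds and packages proacrosin. It had 74 and 530 counts in USg, 78 and 179 in DSg and 401 and 460 in Spc, so that all libraries expressed it. Its levels were 28.6 and 94.4 CPM in USg, 31.5 and 48.2 CPM in DSg and 79.0 and 100.2 CPM in Spc. USg 2 lay among the Spc libraries and USg 1 below both DSg libraries. The log2 fold change of Spc over USg was 0.53 ± 0.51 (edgeR adjusted p = 0.452), which turned to -0.12 without USg 1 and to 1.66 without USg 2, past the threshold in the last case (adjusted p = 0.0121). For Spc over DSg it was 1.16 ± 0.53 (adjusted p = 0.134), with no overlap between the libraries, and it passed in 5 of 15 alternatives, among them without USg 1 (adjusted p = 0.0126) and without USg 2 (0.0109). Whether Acrbp differed between Spc and USg was therefore decided by which USg library was kept.

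**Figure D2:**
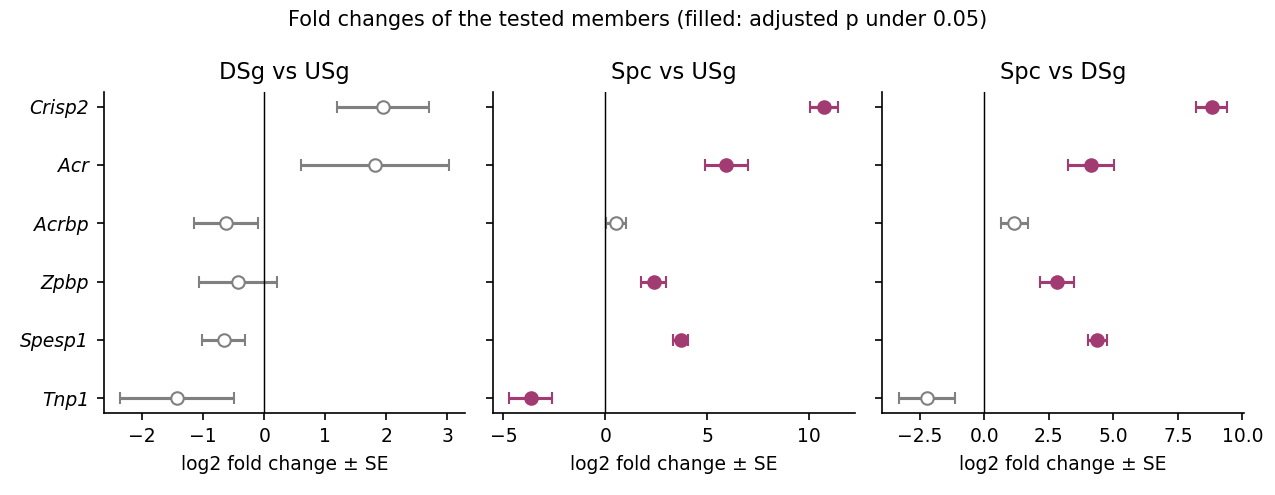
Log2 fold change (horizontal axes, bars are SE) of the 6 members that passed the filter (vertical axis) for DSg vs USg, Spc vs USg and Spc vs DSg, with filled points past an adjusted p of 0.05. Filled points are 0 in DSg vs USg, 5 in Spc vs USg, with Tnp1 on the lower side, and 4 in Spc vs DSg.

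Of the 4 nuclear members, only Tnp1 had counts enough to test. Tnp1 encodes transition protein 1, a small basic protein that replaces histones in spermatids, and it was the member with the full response element in the sequences above. It had 5 and 91 counts in USg, 10 and 11 in DSg and 5 and 2 in Spc, that is 1.93 and 16.2 CPM, 4.04 and 2.96 CPM, and 0.985 and 0.435 CPM. One library, USg 2, was far above the other 5, and the Spc libraries were the lowest. Tnp1 was lower in Spc than in USg (log2 fold change -3.65 ± 1.06, edgeR adjusted p = 0.0270). The call ended without USg 2 (-1.37, adjusted p = 0.579) and without Spc 2 (-3.20, adjusted p = 0.0800). Tnp1 did not pass the filter when only the libraries of Spc and USg were kept or when 5 CPM were asked for. The log2 fold change of Spc over DSg was -2.22 ± 1.10 (adjusted p = 0.165).

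Tnp2, Prm1 and Prm2 encode transition protein 2 and the 2 protamines, and in RefSeq they neighbour each other and Prm3 on chromosome 10. Their counts were too low to test. Tnp2 had 0 and 0 counts in USg, 0 and 4 in DSg and 1 and 1 in Spc. Prm1 had 3 and 0 counts in USg, 0 and 1 in DSg and 1 and 0 in Spc. Prm2 had 0 and 0 counts in USg, 0 and 4 in DSg and 0 and 0 in Spc. No group held more than 4 counts of any of the 3. A count of 0 over both Spc libraries allows up to 0.295 CPM of Prm2, at 3 counts of 10169330. The exact two-sided Poisson 95% interval of the summed Spc counts, a wider rule, ran up to 0.363 CPM for Prm2, from 0.0238 to 0.710 CPM for Tnp2 and from 0.00249 to 0.548 CPM for Prm1. These limits cover counting error only. Expression of these 3 genes was thus not detectable above the level of single counts in any group. Prm3, which lies in the same cluster, had 1 and 0 counts in Spc, against 0 and 2 in USg.

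With USg taken at day 0, the comparison of DSg with USg spans medium, time and laminin, which cannot be told apart. In it, 0 of the 6 tested members passed the threshold with edgeR, against 2.48% of all genes (0.565% higher and 1.92% lower). Without adjustment, 2344 genes and 1 member, Crisp2, had p under 0.05. DESeq2 called 0 of the members too. Crisp2 had 0.808 and 4.58 CPM in DSg and 0.772 and 0.712 CPM in USg (log2 fold change 1.95 ± 0.76, edgeR adjusted p = 0.214). Acr had 1.81 ± 1.22, Acrbp -0.63 ± 0.52, Zpbp -0.43 ± 0.64, Spesp1 -0.66 ± 0.35 and Tnp1 -1.43 ± 0.93, with adjusted p from 0.341 to 0.749. In CPM the 2 groups did not overlap for Spesp1, lower in DSg, or for Crisp2, higher in DSg. The other 4 overlapped in CPM. The raw counts of Crisp2, 2 and 17 in DSg and 2 and 4 in USg, overlapped. The share of all genes without overlap was not counted, for this or the other comparisons, so overlap is given as a description only. Crisp2 and Acr are tested here only because of their Spc counts. Without USg 1, Acrbp passed as lower in DSg (-1.38, adjusted p = 0.0403), and without USg 2 its sign turned (0.42).

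The DSg counts of Crisp2, Acr, Tnp2, Prm1 and Prm2 came mostly or wholly from DSg 2, the library with the highest share of olfactory receptor genes with a count. In DSg 2 these receptor genes had a median of 4 counts and a 95th percentile of 10. Prm2 and Tnp2, at 4 counts each, were at that median, and Prm1, at 1 count, was below it. Crisp2 with 17 counts and Acr with 14 lay above the 95th percentile, and 0.478% and 1.05% of receptor genes had as many. They were within the range of other acrosomal genes there. The 13 untested acrosomal protein genes of the list below had a median of 9 and at most 19 counts in DSg 2. In DSg 1 the same 13 genes had a median of 0 and at most 4. In DSg 1 Crisp2 had 2 counts and Acr, Tnp2, Prm1 and Prm2 had 0. Without DSg 2 the log2 fold change of Crisp2 in DSg over USg was 0.14 (adjusted p = 0.960). The 91 counts of Tnp1 in USg 2 were above those of all 1045 receptor genes in that library, whose highest was 30.

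**Figure D3:**
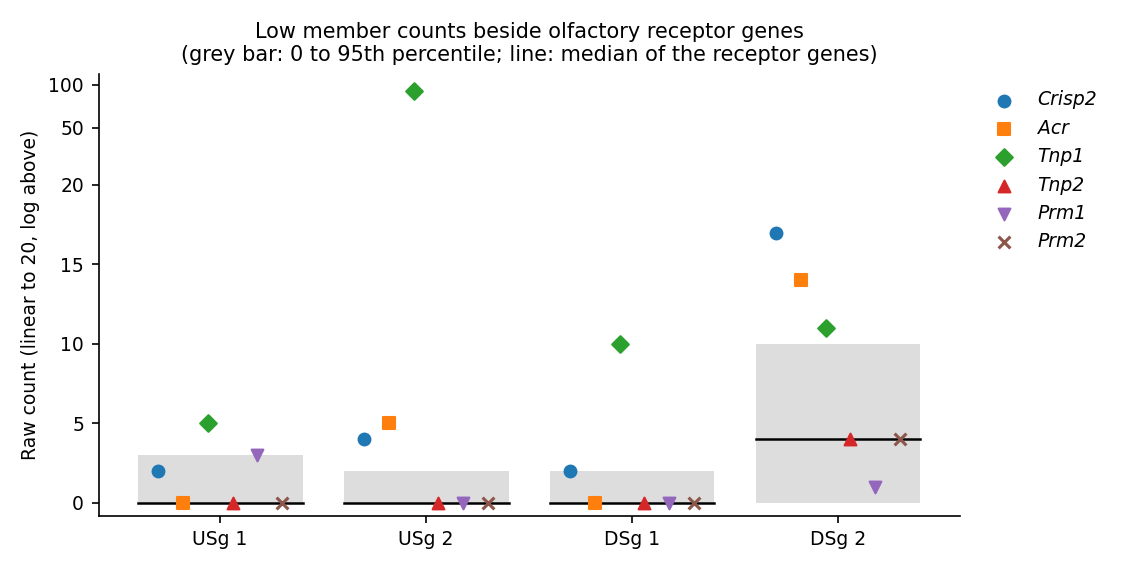
Raw counts (vertical axis, linear to 20 and logarithmic above) of Crisp2, Acr, Tnp1, Tnp2, Prm1 and Prm2 in the 4 libraries of the cell line (horizontal axis); grey bars run from 0 to the 95th percentile of the 1045 olfactory receptor genes and black lines mark their median. Tnp1 in USg 2 stands at 91 counts, and in DSg 2 Crisp2 (17) and Acr (14) lie above the receptor genes' 95th percentile of 10 counts while Tnp2, Prm1 and Prm2 lie within the bar.

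**Figure D4:**
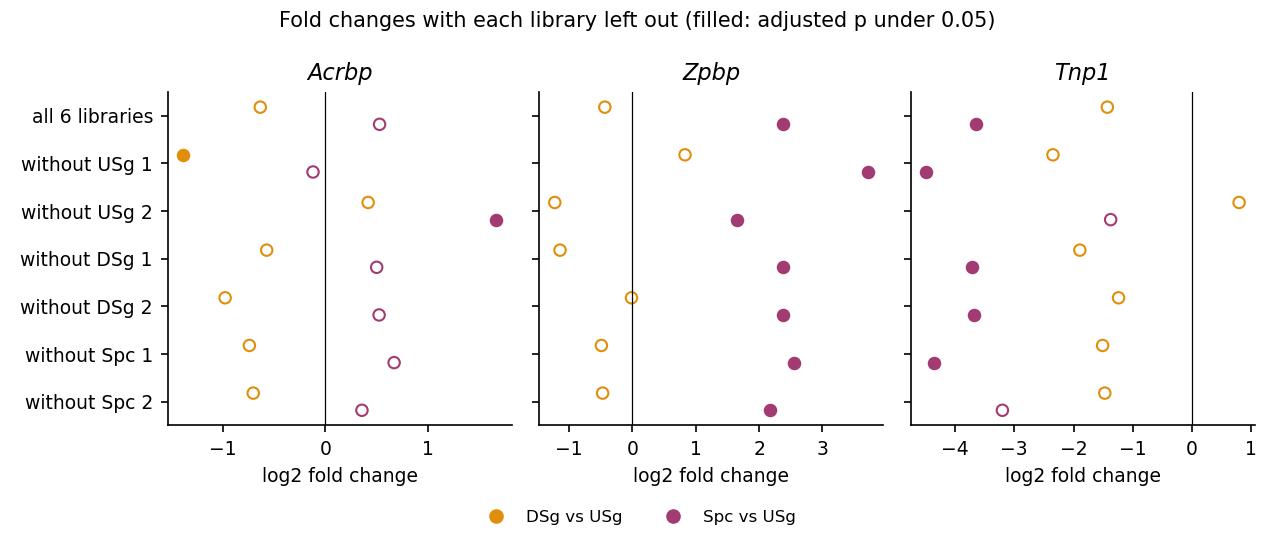
Log2 fold changes (horizontal axes) of Acrbp, Zpbp and Tnp1 with all libraries and with each library left out (vertical axis), for DSg vs USg and Spc vs USg, with filled points past an adjusted p of 0.05. Leaving out USg 1 or USg 2 moves all 3 genes most: Acrbp between -0.12 and 1.66, Zpbp between 1.64 and 3.71 and Tnp1 between -4.48 and -1.37 in Spc vs USg.

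Other genes of the same structures were mixed. Of 34 listed proteins of the acrosome and the sperm-egg contact, 26 were analysed and 13 tested, of which 4 rose and 1 fell in Spc over USg (median log2 fold change 0.97), against 17.9% of all genes higher and 16.6% lower. Here and in the lists that follow, genes high in 1 group alone could pass the filter through it. Spa17, a sperm surface protein gene, rose most, to 709 ± 267 CPM in Spc against 20.3 ± 4.22 CPM in USg (SD, n = 2 each; 5.11 ± 0.46, edgeR adjusted p = 2.10e-04). The sperm protein chaperone gene Clgn (3.96 ± 0.35), the proprotein convertase gene Pcsk4 (3.01 ± 0.56) and Tex101, a germ cell surface protein gene (1.63 ± 0.33), rose as well. Spaca1, an acrosomal membrane protein gene, fell to 10.4 ± 0.730 CPM in Spc, against 48.2 ± 3.91 CPM in USg (-2.21 ± 0.47, adjusted p = 0.00729). The other 13 analysed members of the list had at most 12 counts in either Spc library, among them Acrv1 with 1 and 1. Zpbp2, the paralog of Zpbp, had 14.6 ± 4.54 CPM in Spc and 7.54 ± 1.34 CPM in USg and was not past the threshold (0.97 ± 0.47, adjusted p = 0.139).

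Of 18 genes that build or anchor the acrosome, 12 were analysed and 9 tested. The actin-like gene Actl7b (5.54 ± 1.14) and the Golgi protein gene Gopc (1.79 ± 0.36) rose in Spc over USg, and 0 fell (median 0.30). That is near the share over all genes of 17.9% higher, with 16.6% lower. Actl7b is known from mouse spermatids, and it had 94 and 125 counts in Spc, against 0 and 4 in USg. Its relatives Actl7a and Actl9 had at most 4 counts in either Spc library.

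Of 17 other genes of histone replacement and sperm chromatin, 13 were tested, of which 3 rose and 2 fell in Spc over USg (median 0.53), near the shares over all genes of 17.9% higher and 16.6% lower. Those that rose were the testis linker histone gene Hist1h1t (5.58 ± 0.41), the chaperone gene Hspa2 (3.73 ± 0.46) and Brdt, a bromodomain protein gene (3.04 ± 0.35). Cdyl (-2.02 ± 0.38) and Chd5, a chromatin remodeller gene (-1.76 ± 0.34), fell. The spermatid linker histone genes H1fnt and Hils1 and the kinase gene Tssk6, needed for condensation in mouse, had at most 4 counts in either Spc library. Hist1h1t averaged 617.7 ± 112 CPM in Spc and 12.8 ± 1.76 CPM in USg (SD, n = 2 each).

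Among 16 regulators of transcription and translation in late spermatocytes and spermatids, 12 were tested. In Spc over USg 5 rose and 2 fell (median -0.15), against 17.9% of all genes higher and 16.6% lower. Ybx2, whose product binds and stores messenger RNA in germ cells, rose to 1619 ± 91.4 CPM, against 66.4 ± 39.8 CPM in USg (4.60 ± 0.47). Mybl1, a regulator of pachytene transcription (3.96 ± 0.77), Rfx2 (2.10 ± 0.43), Crem (2.08 ± 0.35) and Papolb (1.37 ± 0.32) also rose, and Rfx1 and Tarbp2 (-1.27 ± 0.41) fell. Crem, whose product binds the element printed for Tnp1, averaged 246 ± 10.2 CPM in Spc and 58.3 ± 5.93 CPM in USg. These are counts on the whole gene, and its isoforms, some of which repress, were not told apart.

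Of 12 spermatid genes outside the acrosome and nucleus, 5 were tested. The tektin gene Tekt1 (2.58 ± 0.38) and the anchoring protein gene Akap3 (2.24 ± 0.61) rose in Spc over USg, and Fscn3 fell (-3.07 ± 0.45). The median was 2.24, and over all genes 17.9% were higher and 16.6% lower. The untested 7, which include the tail genes Odf1 and Akap4 and the sperm glycolysis gene Gapdhs, had between 1 and 9 counts in the Spc libraries and between 7 and 13 in DSg 2. In USg 2, the library with 91 counts of Tnp1, the same 7 genes had at most 3.

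Crisp2 belongs to the CAP superfamily, of which 8 of 12 listed relatives were analysed and 6 tested. In Spc over USg 3 were higher and 0 lower (median 1.65, also with Crisp1 at its bound), against 17.9% of all genes higher and 16.6% lower. Glipr1 (4.14 ± 0.86) and Pi15 (2.70 ± 0.91) rose. Crisp1, a close relative of Crisp2 in the epididymis, is named after its values were seen. It had 21 and 16 counts in Spc and 0 and 0 in USg. With USg set to 3 counts in both libraries together, Spc was 10.2-fold higher. This bounds the USg side only and leaves out counting error in Spc and the spread between libraries. Reads of near-identical paralogs could be split or lost in counting, so values of this family are uncertain to that extent. The 6 epididymal markers, Crisp1 included, summed to 6.50 and 5.88 CPM in Spc, against 0.772 and 1.42 CPM in USg, and to 3.23 and 10.8 CPM in DSg.

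**Figure D5:**
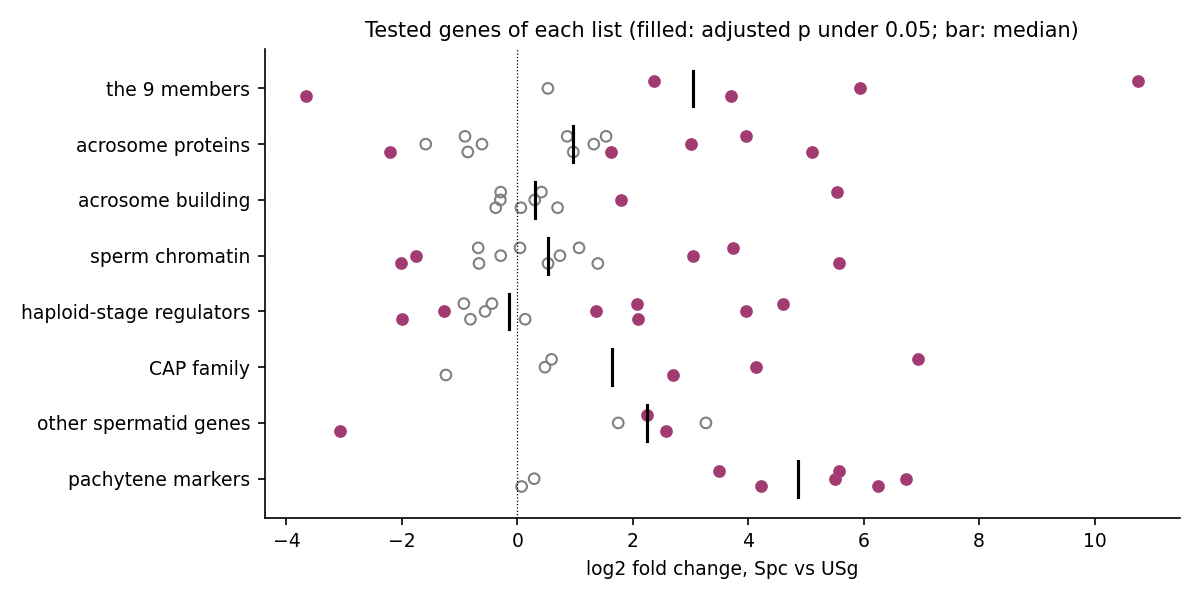
Log2 fold change of Spc vs USg (horizontal axis) for each tested gene of the members and 7 related lists (vertical axis), with filled points past an adjusted p of 0.05 and black bars at list medians. Medians run from -0.15 in the haploid-stage regulators to 4.86 in the pachytene markers; the right-most CAP family point, Crisp1, is a fitted value against 0 counts in USg.

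In DSg over USg, 0 genes of these 6 lists passed the threshold in either direction, against 2.48% of all genes. In Spc over DSg, 4 rose and 2 fell among the acrosomal proteins, 3 and 0 among the genes that build the acrosome, 4 and 2 in sperm chromatin, 4 and 1 among the regulators, 3 and 0 in the CAP family and 1 and 1 among the other spermatid genes. Over all genes 14.8% rose and 11.7% fell.

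The genes most like each member were those with the smallest Euclidean distance in log2(CPM + 1) over the 6 libraries, among 11843 tested genes, as a description. For Acr they were Sept12 (0.74), Has1 (0.83) and Tmem45b (0.90), of which Sept12, a septin gene known from the sperm annulus, had 45.9 and 37.2 CPM in Spc. For Spesp1 they were Ttc21b (0.51), Ppap2b (0.58) and Ndrg1 (0.73). For Zpbp they included Marcks (0.60) and Sept10 (0.94), and for Acrbp they were Crtc2 (0.54), Taf8 (0.61) and Pla2g6 (0.63). Crisp2 had no close match: the nearest were Smpd5 (2.45), Dcn (2.51) and Fam229b (2.57). Dcn, which encodes the matrix proteoglycan decorin of stromal cells, had 538 and 558 CPM in Spc, against 2.32 and 2.14 CPM in USg.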

How the data were processed

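The authors deposited raw read counts per gene symbol for 6 RNA libraries, as the values show: they are whole numbers and the columns sum to unequal totals. The submitters' processing notes list HOMER, Picard 1.127, edgeR 3.2.4, Subread 1.4.6 with featureCounts, STAR 2.5.3a and Bowtie2 2.2.3 without saying what each did. Which aligner, build, annotation and strand option produced the counts is not given in the sources used here.

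filterByExpr (minimum count 10, minimum total count 15) kept 12210 of 16764 symbols. After TMM scaling, all 6 libraries entered 1 edgeR 4.0.16 quasi-likelihood fit (R 4.3.3) with 3 residual degrees of freedom. F-tests were two-sided, p-values were adjusted over the 12210 genes by the Benjamini-Hochberg method, and the threshold was 0.05. Each SE was derived as |log2 fold change| / sqrt(F). Levels are TMM-scaled CPM per library or as mean ± SD. CPM are not corrected for gene length, so levels were not ranked between genes, and the nearest genes are a description of profiles in which length counts too. The fit was tested on simulated data.

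All members were named. From each list, up to 4 genes past the threshold in Spc vs USg with the largest fold change and at least 5 CPM in the higher group were named, with up to 2 that moved the other way. Other list genes given by name, such as Kit, Tex101, Papolb, Zpbp2, Acrv1, Actl7a, Actl9, Crisp1 and the low spermatid genes, and Shank3, were chosen after their values were seen. The members and lists were chosen with earlier results of these data known. One gene among those most like a member is not reported here. Promoter sequences are RefSeq's, build GRCr8, matched by symbol. Alternatives were other scalings and filters, DESeq2 1.42.0, a replicate block, fits of only the 4 libraries compared, leaving out each library and, added after the data were seen, leaving out ribosomal RNA genes.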

Additional observations from a re-analysis of the deposited data

How the results depend on the processing

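With 2 libraries a group, single libraries decided several values. Depth limits Crisp2, Acr, Tnp1, Tnp2, Prm1 and Prm2 in the cell line, where 1 count is worth 0.178 to 0.404 CPM. The rises of Crisp2, Acr, Zpbp and Spesp1 over USg held under all 15 alternatives, which reuse the same libraries. Crisp2 and Acr passed the filter through their Spc counts. Without USg 2 the fold of Acr is fitted against 0 counts. Between 4 and 5 members were called in Spc vs USg, and between 3 and 5 in Spc vs DSg. In DSg vs USg 0 were called, with a range of 0 to 1 when a library was left out. Signs turned in that comparison for Acrbp without USg 2 (0.42), Zpbp without USg 1 (0.83), Tnp1 without USg 2 (0.79) and Acr without DSg 2 (-4.31, fitted against 0 counts in DSg 1), and for Acrbp in Spc vs USg without USg 1 (-0.12). In DSg vs USg, leaving out the other USg library gave -1.38 for Acrbp without USg 1 and -1.22 for Zpbp without USg 2. For Tnp1 it gave -2.35 without USg 1. In Spc vs USg, Acrbp had 1.66 without USg 2. Acr in DSg vs USg had 2.44 without DSg 1 and 5.94 without USg 2, the last fitted against 0 counts. The cause was not tested.

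Over all genes, 303 were called in DSg vs USg, against 199 with total-count scaling, 1044 with no filter, 781 with DESeq2, 90 in the fit of 4 libraries and 604 with the replicate block, and between 0 and 1501 with a library left out. The edgeR count was 0 without DSg 1 or DSg 2, where 3439 and 1823 genes had an unadjusted p under 0.05; a group left with 1 library is assumed to vary like the others. For Spc vs USg 4214 were called, and 2258 to 4411 with a library left out. For Spc vs DSg 3239 were called, and 1642 to 4289. Total-count scaling moved the median of all genes in DSg vs USg to 0.16 (0.01 with TMM). The labels do not say that replicate numbers pair the samples. Deviations of same-numbered libraries correlated at 0.29 (DSg and USg), -0.29 (Spc and USg) and -0.01 (Spc and DSg), and ribosomal RNA was high in replicate 1 of both USg and DSg, so pairing within the line is not settled; with the replicate block Acrbp was called in Spc vs DSg (1.21, adjusted p = 0.0334).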
